A study of Drosophila melanogaster with 22 samples.

Results

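Signalling by receptor tyrosine kinases was represented here by 6 genes: Pvf1, Pvf2 and Pvf3, which encode secreted ligands of the PDGF/VEGF type, Pvr, which encodes their receptor, bnl (branchless), which encodes a fibroblast growth factor (FGF), and aos (argos), which encodes a secreted antagonist of the epidermal growth factor (EGF) receptor. They were picked by gene symbol, with their levels across the 6 dsRNA groups known, from 11982 genes that had a probe set with a single gene symbol. All 6 were among the 5961 genes measured over the floor of log2 4 used throughout, an intensity of 16. Because their levels in these same groups led to the choice, their values are given as a description and no test is attached to them.

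The groups came from S2 cells, an established Drosophila melanogaster line with haemocyte (blood cell) traits, in which single subunits of the Cdk8 module of the Mediator complex had been depleted by RNA interference. Double-stranded RNA (dsRNA) targeted Cdk8 (2 arrays), Cyclin C (CycC, 4 arrays), Med12 (4 arrays) or Med13 (4 arrays), and 8 control arrays came from cells given dsRNA against the reporters GFP (4) or luciferase (Luc, 4). All cells received 20 µg of dsRNA in serum-free medium, with serum added 1 h later, and were sampled at 72 h. Separate cultures for the arrays of a group are not stated in the labels, and the spread that p-values measure here may therefore be technical.

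In flies, the PVF ligands act through PVR to direct cell migration, and in haemocytes the receptor also supports survival. Branchless is the ligand of the FGF receptor Breathless and is known for guiding the branching of the tracheal tubes. Argos binds the EGF receptor ligand Spitz and keeps it from the receptor, and it is itself induced by EGF receptor signalling, which makes it a feedback inhibitor. The 3 branches share a core of Ras and mitogen-activated protein kinase (MAPK) inside the cell.

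Depletion of the targets was uneven. The targeted transcript stood at 14.4% of controls with Cdk8 dsRNA, 3.56% with CycC dsRNA and 9.98% with Med12 dsRNA (gene kto). With Med13 dsRNA it stood at 80.6% (gene skd), although every Med13 array lay below all 8 controls. The GFP and Luc arrays did not overlap for skd (GFP minus Luc 0.14, log2), and skd was higher with Med12 dsRNA (0.27). How well its probe set reads depletion was not tested. Among plasmatocyte markers, 7 of 8 were over the floor, including Hml, eater and crq, and NimC1 was not, with a highest log2 value of 2.33. By a fit across all genes (limma, Benjamini-Hochberg adjustment over 5961 genes, threshold 0.05), 2 of these 7 fell and 1 rose with Cdk8 dsRNA, 3 fell and 1 rose with CycC, 6 fell with Med12 and 5 fell with Med13. The lamellocyte markers atilla and ItgaPS4 and the crystal cell markers lz and PPO2 were also under the floor on all arrays, as were those of fat body, muscle and trachea with a probe set. The crystal cell marker PPO1 (up to 7.18) rose with CycC dsRNA and fell with Med12 and Med13. The integrin gene mys on the lamellocyte list (up to 12.36) fell with Med12 and Med13. The neuron marker elav (up to 5.53, control mean 5.11) was over the floor and rose with Med12 dsRNA. The germline marker bam (up to 6.01) had a control mean of 3.48, under the floor, and passed as higher with Cdk8 and CycC dsRNA. It may have entered the fit only through those groups, and its rise starts from under the floor, so nothing is read from it. The summed intensity of the 7 plasmatocyte markers, as log2, was 13.43 to 13.59 in Cdk8, 13.43 to 13.56 in CycC, 13.21 to 13.28 in Med12 and 13.28 to 13.47 in Med13 arrays, against 13.59 to 13.68 in controls. Its part in the results below was not tested, and in such bulk RNA fewer cells of a kind and less RNA per cell cannot be told apart.

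The 6 genes showed 2 patterns. The 3 Pvf ligands and Pvr were above controls with Cdk8 or CycC dsRNA and below controls with Med12 or Med13 dsRNA, in the mean of every group. By contrast, bnl and aos were below controls in all 4 knockdowns. Of all genes tested, 11.9% had mean differences in the directions of the first pattern and 14.3% in those of the second. The patterns describe why these genes were picked, and the 4 comparisons share their 8 controls.

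**Figure D1:**
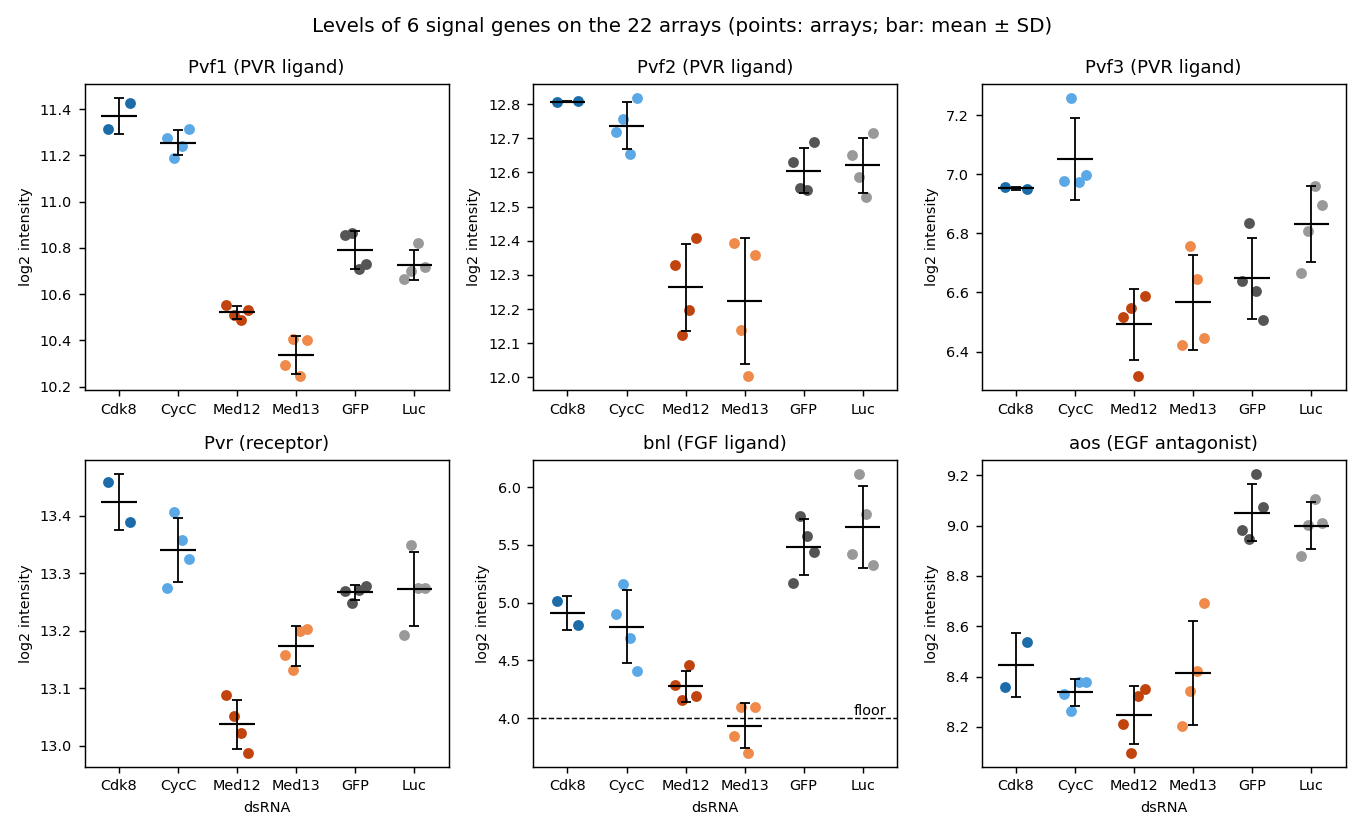
The log2 intensity of each of the 6 genes (vertical axes, which differ in range and do not start at 0) is plotted for each array by dsRNA group, with the group mean and SD as black bars. Pvf1 has its highest arrays with Cdk8 or CycC dsRNA and its lowest with Med13 dsRNA, whereas bnl and aos have their highest arrays in the GFP and Luc controls. The dashed line marks the floor of log2 4.

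Pvf1, a ligand known for guiding migrating border cells in the fly ovary, was the only one of the 6 whose arrays lay wholly above controls in one pair of knockdowns and wholly below them in the other. Its log2 intensity (probe set 1631638_at) was 11.31 and 11.43 with Cdk8 dsRNA, and 11.28, 11.19, 11.24 and 11.31 with CycC dsRNA. It was 10.55, 10.51, 10.49 and 10.53 with Med12 dsRNA, and 10.29, 10.41, 10.25 and 10.40 with Med13 dsRNA. The controls read 10.86, 10.87, 10.71 and 10.73 with GFP dsRNA and 10.67, 10.70, 10.82 and 10.72 with Luc dsRNA. Both control groups overlapped, while each knockdown group stood clear of all 8 controls and of the other knockdown groups, although the lowest Cdk8 array and the highest CycC array were equal to 2 decimals. The order of the group means was Cdk8, CycC, GFP, Luc, Med12 and Med13, and GFP with Luc was the only neighbouring pair in that order with overlapping arrays.

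Relative to controls (log2 10.76 ± 0.08 SD, n = 8), the Pvf1 level was 1.53-fold higher with Cdk8 dsRNA (log2 difference 0.61 ± 0.05 SE) and 1.41-fold higher with CycC dsRNA (0.50 ± 0.04). It was at 84.8% of controls with Med12 dsRNA (-0.24 ± 0.04) and at 74.7% with Med13 dsRNA (-0.42 ± 0.04). Set directly against each other, the 8 Med12 and Med13 arrays differed from the 6 Cdk8 and CycC arrays by -0.88 ± 0.04, a 1.85-fold lower level, and the controls play no part in that difference. Arrays that do not overlap controls in any knockdown, in these same directions, were found for 0.637% of genes tested, 38 of 5961.

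Pvf2 and Pvf3 encode ligands known for directing haemocyte migration in the embryo. In the RefSeq gene table (Release 6 assembly) they are neighbours with no protein-coding gene between them, though 2 long non-coding RNA genes lie there. The Pvf2 probe set (1630642_at) read 12.81 and 12.81 with Cdk8 dsRNA and 12.65 to 12.82 in the 4 CycC arrays. With Med12 dsRNA it read 12.33, 12.12, 12.20 and 12.41, and with Med13 dsRNA 12.39 and 12.36 on 2 arrays and 12.14 or less on the other 2. The 8 controls ran from 12.53 to 12.72, with a median of 12.61. All 8 Med12 and Med13 arrays thus lay below all controls, both Cdk8 arrays lay above them, and 3 of 4 CycC arrays did.

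The Pvf2 differences from controls were 0.19 ± 0.08 (Cdk8), 0.12 ± 0.06 (CycC), -0.35 ± 0.06 (Med12) and -0.39 ± 0.06 (Med13; log2, SE). The Med12 and Med13 levels were 78.5% and 76.4% of controls, and these 2 groups overlapped. Cdk8 with CycC, CycC with Luc, and Luc with GFP, which follow one another in the order of means, overlapped as well. The gap above Med12 was the only one between neighbours without overlap.

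Pvf3 was measured over the floor by 1 of its 4 probe sets (1632817_at), and the other 3 stayed between 2.55 and 3.30 on all 22 arrays. Its values were 6.96 and 6.95 with Cdk8 dsRNA and 6.98, 7.26, 6.97 and 7.00 with CycC dsRNA. With Med12 dsRNA they ran from 6.32 to 6.59 and with Med13 dsRNA from 6.42 to 6.76, against 6.51 to 6.96 (median 6.74) in the controls. Only the CycC group lay clear of the controls, at 1.24-fold higher (0.31 ± 0.08), and the CycC 2 array stood above the other 3. Without that array the CycC difference was 0.24. CycC 2 was also the highest array on the under-floor probe sets 1632773_a_at (3.30) and 1637519_at (3.10), while Luc 2 was highest on 1641276_at (2.66). The CycC difference was 0.22 against Luc arrays alone and 0.40 against GFP arrays alone. The remaining differences were 0.21 ± 0.10 (Cdk8), -0.25 ± 0.08 (Med12) and -0.17 ± 0.08 (Med13). They depended on the control: against Luc arrays alone the Cdk8 and Med13 differences were 0.12 and -0.26, and against GFP arrays alone those of Med12 and Med13 were -0.16 and -0.08. Every Med12 and Med13 array lay below every Cdk8 and CycC array, with a difference of -0.47 ± 0.07.

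Pvr, the receptor of these ligands, had the smallest difference of the 6 in every knockdown. Its single probe set (1638143_a_at) read 13.46 and 13.39 with Cdk8 dsRNA and 13.27 to 13.41 with CycC dsRNA. It read 12.99 to 13.09 with Med12 dsRNA and 13.13 to 13.20 with Med13 dsRNA, against 13.19 to 13.35 (median 13.27) in controls. The Cdk8 arrays lay above all controls and the Med12 arrays below them, while the CycC and Med13 groups each overlapped the controls. As differences these were 0.15 ± 0.04 (Cdk8), 0.07 ± 0.03 (CycC), -0.23 ± 0.03 (Med12) and -0.10 ± 0.03 (Med13). In the order of means (Cdk8, CycC, Luc, GFP, Med13, Med12), the gaps on both sides of Med13 were the ones without overlap, and the Med12 arrays were all below the Med13 arrays, by -0.14 ± 0.04. Over the 4 genes of the PVF branch, each Med12 or Med13 array lay below each Cdk8 or CycC array, which held for 9.93% of all genes tested.

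**Figure D2:**
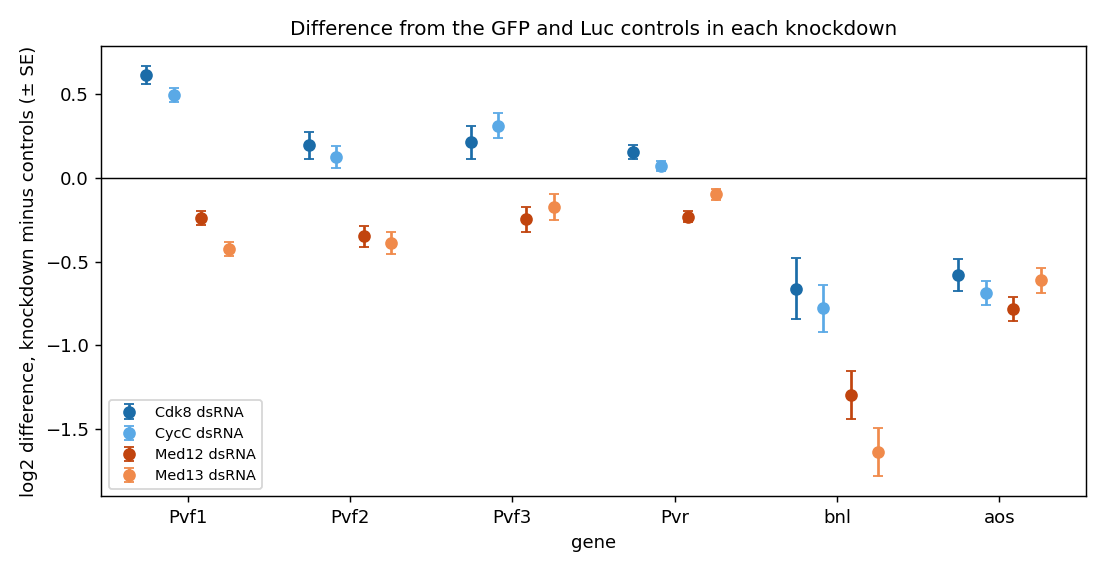
The log2 difference of each knockdown from the mean of both control groups (vertical axis) is plotted for the 6 genes, with SE from the fit across all genes. The Pvf ligands and Pvr lie above 0 with Cdk8 or CycC dsRNA and below 0 with Med12 or Med13 dsRNA, from 0.61 for Pvf1 down to -0.42, and bnl reaches -1.64.

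The FGF gene bnl had the largest differences of the 6. The probe set over the floor (1627135_at) read 5.01 and 4.80 with Cdk8 dsRNA and 4.90, 5.16, 4.69 and 4.41 with CycC dsRNA. It read 4.29, 4.16, 4.46 and 4.19 with Med12 dsRNA and 3.85, 4.10, 3.70 and 4.09 with Med13 dsRNA. In the controls it read 5.17, 5.75, 5.57 and 5.44 (GFP) and 5.42, 6.11, 5.76 and 5.33 (Luc). Each knockdown array lay below each control array, and 2 of the 4 Med13 arrays were under the floor, close to the background of the array. The other 2 bnl probe sets stayed between 2.59 and 2.89 on every array and give no reading of the gene.

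As shares of controls (5.57 ± 0.30 SD, n = 8), bnl stood at 63.2% with Cdk8 dsRNA, 58.3% with CycC, 40.7% with Med12 and 32.2% with Med13. The log2 differences were -0.66 ± 0.18, -0.78 ± 0.14, -1.30 ± 0.14 and -1.64 ± 0.14 (SE) in the same order. The Med13 mean, 3.93, is itself under the floor, and the Med12 arrays, at 4.16 to 4.46, lay just above it. The shares and differences of both groups are therefore uncertain. Along the order of means (Luc, GFP, Cdk8, CycC, Med12, Med13), the gap between GFP and Cdk8 and that between Med12 and Med13 had no overlap, and the CycC and Med12 arrays overlapped. Between the pairs the difference was -0.75 ± 0.13, with 7 of 8 Med12 and Med13 arrays below all Cdk8 and CycC arrays.

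The EGF antagonist gene aos was lower in all 4 knockdowns by similar amounts. Its probe set (1641578_at) read 8.36 and 8.54 with Cdk8 dsRNA, 8.33, 8.26, 8.38 and 8.38 with CycC dsRNA, and 8.21, 8.10, 8.32 and 8.35 with Med12 dsRNA. The Med13 arrays read 8.20, 8.34, 8.42 and 8.69. Controls read 8.98, 8.95, 9.20 and 9.07 (GFP) and 8.88, 9.00, 9.11 and 9.01 (Luc), so that no knockdown array reached the lowest control. The level was 67.0% of controls with Cdk8 dsRNA (-0.58 ± 0.09 SE), 62.0% with CycC (-0.69 ± 0.07), 58.2% with Med12 (-0.78 ± 0.07) and 65.5% with Med13 (-0.61 ± 0.07).

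All neighbouring knockdown groups overlapped in aos, and between the pairs the difference was -0.06 ± 0.07, with a 1.04-fold lower level in the Med12 and Med13 arrays. The other 5 genes had differences between the pairs from -0.28 ± 0.03 (Pvr) to -0.88 ± 0.04 (Pvf1). Arrays below all controls in each of the 4 knockdowns, as for bnl and aos, were seen for 1.43% of genes tested.

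Arrays clear of all controls were seen for 5 of the 6 genes with Cdk8 dsRNA, 4 with CycC, 5 with Med12 and 4 with Med13, where this held for 26.2%, 14.3%, 24.3% and 17.3% of all genes in that order. Between Med12 and Med13 the arrays of Pvf1, Pvr and bnl did not overlap (6.14% of all genes), and between Cdk8 and CycC those of Pvf1 and Pvf3 did not (13.5%). Since these contrasts led to the choice of the genes, nothing is read from the counts.

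Across the 22 arrays, which share their normalization and fall into the same 6 groups, Pvf1 and Pvf2 had a Pearson correlation of 0.84, and Pvf1 and Pvr one of 0.76. That of bnl with aos was 0.78, and that of Pvf1 with aos -0.01. After each group mean was subtracted these became 0.12, -0.23, 0.10 and 0.22 in the same order, so the likeness lay mostly between groups. Before that subtraction, the other pairs across both patterns ran from 0.01 (Pvf3 with aos) to 0.61 (Pvf2 with bnl). The latter was close to the 0.64 of Pvf2 with Pvf3, so the patterns were not separate in these correlations.

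The genes whose levels followed each of the 6 most closely over the arrays were found by Pearson correlation among 5960 others, and are given as a description. For Pvf1 they were Pxn (r = 0.97), which encodes the matrix enzyme peroxidasin, tmod (0.96), which encodes the actin filament capping protein tropomodulin, and Agpat2 (0.96). Pxn, also one of the 7 plasmatocyte markers above, differed between the GFP and Luc controls by 0.36 (GFP minus Luc). Their arrays did not overlap, though the difference did not pass the threshold. Against both control groups Pxn had larger differences than Pvf1 itself, 1.15 (Cdk8), 1.27 (CycC), -0.92 (Med12) and -1.25 (Med13) on the log2 scale. For Pvr the closest was vkg (0.97), a collagen IV gene of the basement membrane, at 0.10, 0.06, -0.15 and -0.07 in that order of knockdowns. Hel89B (0.96) and Sec63 (0.94), a gene of protein transport into the endoplasmic reticulum, came next.

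For Pvf2 the closest genes were RhoGAP92B (0.95), CG15745 (0.94) and CG5455 (0.93), and for Pvf3 they were MFS18, Eaf and Cln7 (0.87, 0.86 and 0.86). For bnl they were CG10433 (0.94), Glt (0.93), which encodes a matrix protein, and CG15209 (0.93). For aos they were CG32170 (0.95), ena (0.95), the actin regulator Enabled, and Paics (0.92), a purine synthesis gene. Within groups the correlation of Pvf2 with RhoGAP92B stayed at 0.91 and that of Pvr with vkg at 0.85, while that of Pvf1 with Pxn was 0.14.

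**Figure D3:**
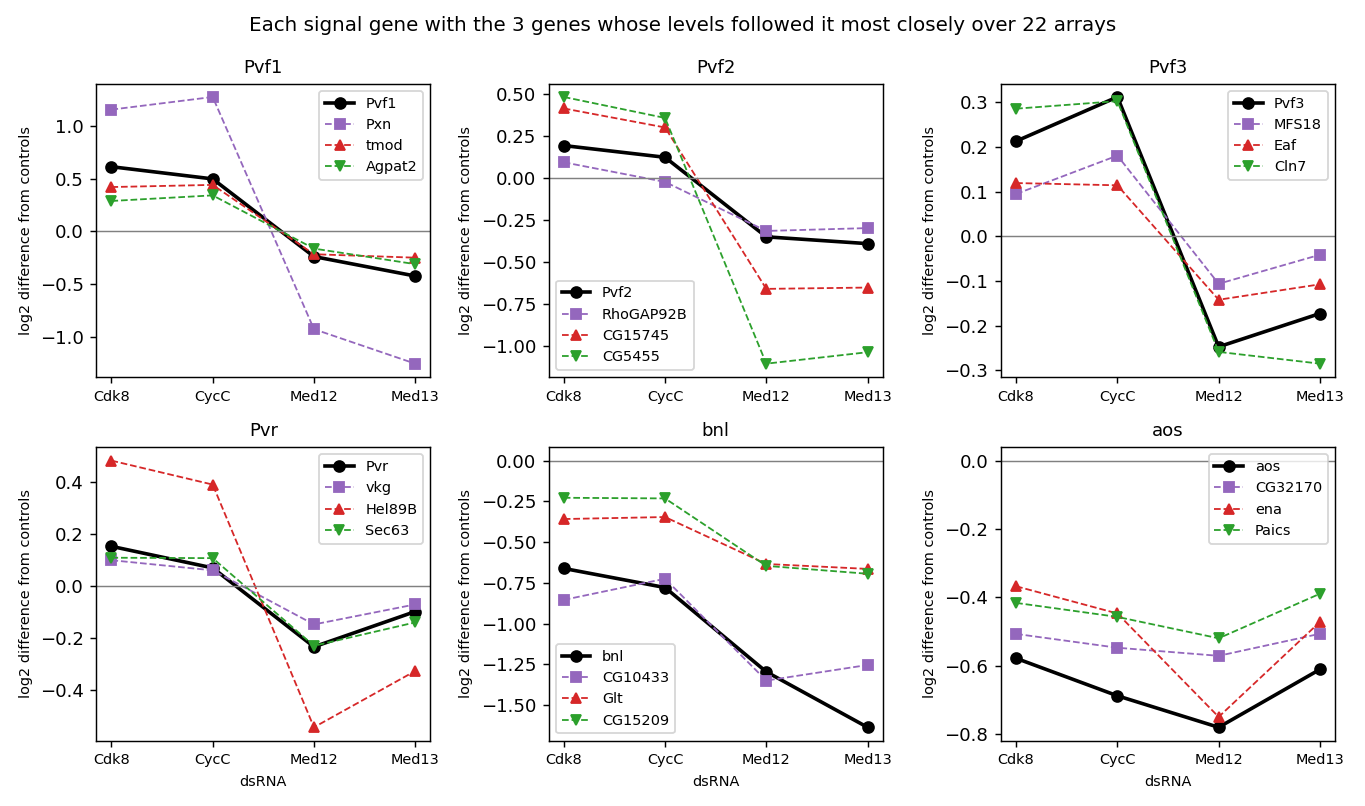
Each panel plots the log2 difference from controls (vertical axis) in the 4 knockdowns for one of the 6 genes (black) and the 3 genes that followed it most closely over the 22 arrays. Lines join the points of a gene to guide the eye and imply no order. Pxn runs from 1.27 with CycC dsRNA to -1.25 with Med13 dsRNA beside Pvf1, and all genes in the bnl and aos panels lie below 0.

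The rest of the pathway was taken from lists of ligands, receptors, Ras/MAPK and PI3K components, nuclear factors and other receptor tyrosine kinases, 83 genes besides the 6. Of these 63 had a probe set with their symbol alone, and 45 were tested, with p-values adjusted over all 5961 genes by limma. In the Cdk8 comparison 3 rose and 5 fell, in CycC 4 rose and 6 fell, in Med12 11 rose and 5 fell, and in Med13 7 rose and 1 fell. The Med12 counts hold trk and kay, which are treated as undecided below. With each array centred on its median the split was 8 higher and 5 lower for Med12 and 6 higher and 5 lower for Med13, and with quantile normalization it was 7 higher and 4 lower for Med13. As deposited, the calls are 17.8%, 22.2%, 35.6% and 17.8% of the 45, beside 18.7%, 24.2%, 41.9% and 32.2% of all genes, so no share stood above the background. The median difference over the 45 was 0.04, -0.02, 0.07 and 0.04, and over all genes it was 0.02, 0.01, 0.04 and 0.03. The Cdk8 count of 8 became 4 without the Cdk8 1 array, and the CycC count of 10 became 5 against GFP controls alone.

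Receptors of the FGF and EGF branches were under the floor. The probe set for Egfr read 2.25 to 2.30, that for btl (breathless) 2.08 to 2.13 and that for htl (heartless, the second FGF receptor) 2.82 to 3.22 on all 22 arrays. A low reading can reflect the probe set as well as the transcript, and neither was tested. Ras85D, rl and pnt had no probe set with their symbol alone in the annotation used here, and so were not analysed.

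Of 3 tested FGF genes besides bnl, 2 rose with Cdk8 dsRNA and the same 2 with CycC dsRNA, none passed with Med12 dsRNA (0 also at an unadjusted p under 0.05) and 1 rose with Med13 dsRNA. The FGF gene pyr (pyramus), which encodes a ligand of Heartless, read 9.97 and 10.08 with Cdk8 dsRNA and 9.86 to 9.97 with CycC dsRNA, all above the control range of 9.11 to 9.46. It rose by 0.72 ± 0.09 (adjusted p = 5.13e-06) and 0.59 ± 0.07 (adjusted p = 1.33e-06), and with Med13 dsRNA by 0.35 ± 0.07 (adjusted p = 0.000474). With Med12 dsRNA the difference was 0.11 ± 0.07. In these same knockdowns bnl was lower, so the pair of FGF ligands differed in direction. The heparan sulphate sulphotransferase gene sfl (sulfateless) rose with Cdk8 (0.51 ± 0.13, adjusted p = 0.00687) and CycC dsRNA (0.37 ± 0.10, adjusted p = 0.00885). Both sfl calls were lost in some alternatives, where the adjusted p reached 0.103 and 0.0509. For sgl (sugarless), which supplies a sugar precursor of heparan sulphate, the differences lay between -0.09 and 0.10.

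In the EGF branch 7 genes besides aos were tested. With Cdk8 dsRNA none passed (2 at an unadjusted p under 0.05), with CycC dsRNA 2 fell, with Med12 dsRNA 3 rose and 1 fell, and with Med13 dsRNA 1 rose. The gene of the main EGF receptor ligand, spi (spitz), read 12.37 and 12.38 with Cdk8 and 12.26 to 12.36 with CycC dsRNA, 12.84 to 12.88 with Med12 and 12.76 to 12.89 with Med13 dsRNA, against 12.43 to 12.60 in controls. No knockdown group overlapped the controls, and spi rose by 0.38 ± 0.03 with Med12 dsRNA (adjusted p = 2.51e-08) and by 0.33 ± 0.03 with Med13 dsRNA (adjusted p = 2.10e-07). It fell by 0.19 ± 0.03 with CycC dsRNA (-0.19, adjusted p = 0.000371), and with Cdk8 dsRNA the difference was -0.12 ± 0.04 (adjusted p = 0.0688). Between the pairs spi was higher with Med12 and Med13 dsRNA by 0.51 ± 0.03 (adjusted p = 2.92e-11), a direction opposite to that of the Pvf genes. The spi transcript thus rose with Med12 and Med13 dsRNA, whereas that of its antagonist aos was lower in every knockdown. With Cdk8 and CycC dsRNA the spi arrays lay below all controls, as those of aos did.

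Further ligand and feedback genes were near the threshold. The ligand gene grk (gurken) fell with CycC dsRNA (-0.22 ± 0.07, adjusted p = 0.0349) and rose with Med12 dsRNA (0.26 ± 0.07, adjusted p = 0.00687), and both calls were lost in some alternatives (adjusted p up to 0.354 and 0.150). The feedback inhibitor gene sty (sprouty) fell with Med12 dsRNA (-0.29 ± 0.10, adjusted p = 0.0211), a call lost with no floor on low values (adjusted p = 0.0597). For Cbl, a ubiquitin ligase of activated receptors, differences ran from -0.07 to 0.23 and none passed.

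Among the 13 tested genes of the Ras/MAPK core, 2 fell with Cdk8 dsRNA, 1 rose with CycC, 4 rose with Med12 and 2 rose with Med13. Mkp3, a phosphatase that inactivates MAPK, fell with Cdk8 dsRNA (-0.28 ± 0.07, adjusted p = 0.00597) and rose with Med12 (0.17 ± 0.05, adjusted p = 0.0153) and Med13 dsRNA (0.20 ± 0.05, adjusted p = 0.00651). The fall did not hold in some alternatives (adjusted p up to 0.225), nor did the Med12 rise (up to 0.0680). The RasGAP gene vap (vacuolar peduncle) rose with Med12 dsRNA (0.16 ± 0.03, adjusted p = 0.00110) and Med13 dsRNA (0.10 ± 0.03, adjusted p = 0.0255, up to 0.147 in the alternatives). The adaptor gene Shc fell with Cdk8 dsRNA (-0.17 ± 0.05, adjusted p = 0.0167, up to 0.174), and Sos, which encodes the exchange factor that activates Ras, rose with Med12 dsRNA (0.14 ± 0.05, adjusted p = 0.0158, up to 0.0726).

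Of 8 tested nuclear factors, 2 fell with Cdk8 dsRNA, 3 with CycC, 3 with Med12 and 1 with Med13, and no gene passed in the other direction. Among the 3 Med12 calls was kay, whose probe sets disagreed. The gene edl (also called mae), whose product acts on the ETS factors Pointed and Yan, fell in all 4 knockdowns, as aos was lower in all 4. It read 10.58 and 10.61 with Cdk8, 10.61 to 10.68 with CycC, 10.18 to 10.49 with Med12 and 10.38 to 10.55 with Med13 dsRNA, against 10.84 to 10.97 in controls, with no overlap. The differences were -0.30 ± 0.06 (adjusted p = 0.00101), -0.25 ± 0.05 (adjusted p = 0.000477), -0.60 ± 0.05 (adjusted p = 2.36e-09) and -0.41 ± 0.05 (adjusted p = 7.69e-07) in that order. For comparison, 2.13% of all genes fell in all 4.

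The gene aop, which encodes the ETS repressor Yan, fell with Cdk8 dsRNA (-0.30 ± 0.05, adjusted p = 0.000234) and CycC dsRNA (-0.16 ± 0.04, adjusted p = 0.00485). Its Med12 and Med13 differences were -0.06 ± 0.04 and -0.08 ± 0.04. Jra, which encodes the fly Jun protein, fell with CycC dsRNA (-0.11 ± 0.04, adjusted p = 0.0340, up to 0.158 in the alternatives). The Fos gene kay passed with Med12 dsRNA (-0.16 ± 0.06, adjusted p = 0.0448), but its 2 probe sets disagreed and their mean gave 0.12 for Med12 and 0.22 for Med13 dsRNA, so no direction is given for it.

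Among 4 tested genes of the PVR list besides the ligands and the receptor, 1 fell with Cdk8 and with CycC dsRNA, and 1 rose with Med12 and with Med13 dsRNA. Vav, which encodes a signalling protein with exchange factor activity, rose with Med12 dsRNA (0.17 ± 0.05, adjusted p = 0.0116) and Med13 dsRNA (0.17 ± 0.05, adjusted p = 0.0127), opposite to the lower Pvr level there. Both calls were lost in some alternatives (adjusted p up to 0.132 and 0.0931). The gene stck, which encodes the integrin-linked adaptor PINCH, fell with Cdk8 (-0.15 ± 0.05, adjusted p = 0.0403, up to 0.270) and CycC dsRNA (-0.12 ± 0.04, adjusted p = 0.0328, up to 0.188). Ced-12 and Crk, whose products act in Rac activation and as an adaptor, had differences between -0.11 and 0.10 and did not pass.

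Of 5 other tested receptor tyrosine kinase genes and ligands, 2 rose and 1 fell with Med12 dsRNA and 1 rose with Med13 dsRNA. Eph, a receptor of ephrins, rose in both (0.23 ± 0.05, adjusted p = 0.00163, and 0.19 ± 0.05, adjusted p = 0.0106). The other Med12 call was the Torso ligand gene trk, which reached the floor on 3 Med12 arrays and 1 Med13 array and on no other, so that it entered the fit only through the groups where it was high, and no size is given for it. The Wnt receptor gene drl fell with Med12 dsRNA close to the floor (4.04 against 4.30, adjusted p = 0.0350, up to 0.190), and InR, the insulin receptor gene, stayed between -0.05 and 0.18. In the PI3K arm 1 of 5 genes rose in each of the 4 knockdowns. It was gig, which encodes the growth inhibitor Tsc2, at 0.26 ± 0.04, 0.11 ± 0.03, 0.29 ± 0.03 and 0.22 ± 0.03 for Cdk8, CycC, Med12 and Med13 dsRNA (adjusted p = 0.000170, 0.0156, 4.83e-07 and 2.25e-05), and its CycC call was lost in some alternatives (adjusted p up to 0.117). Its partner gene Tsc1, the kinase gene Pdk1 and the factor gene foxo had differences from -0.04 to 0.14 and did not pass.

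**Figure D4:**
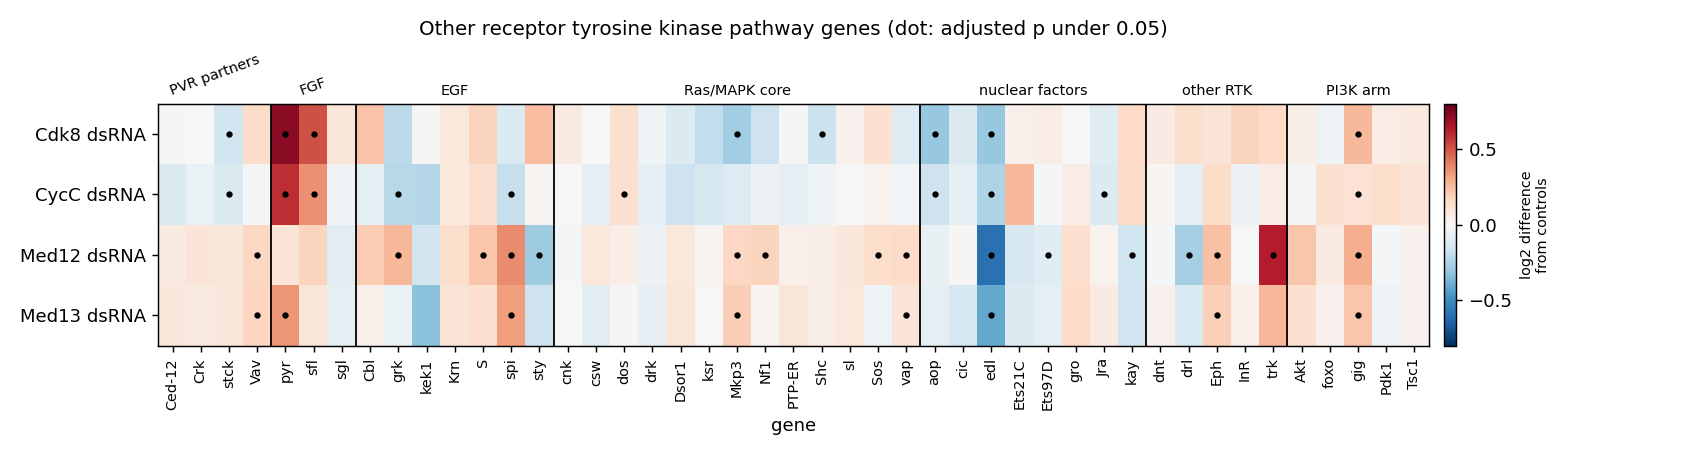
Colour gives the log2 difference from controls for each of the 45 tested pathway genes (columns, by list) in the 4 knockdowns (rows), and a dot marks an adjusted p under 0.05. The gene pyr is reddest with Cdk8 dsRNA (0.72), edl is blue in all 4 rows and gig red in all 4, and spi is red with Med12 and Med13 dsRNA only.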

How the data were processed

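Messenger RNA was measured with 22 Affymetrix arrays, each from 4 µg of extracted RNA labelled with biotin, as the labels' protocols state. The deposited values are 1 intensity per probe set and array on a linear scale from 2.02 to 70939, made with GCRMA (probe background correction, normalization between arrays, summary), per the submitters' processing notes. No source used here gives its version or the genome build behind the probes, and no coordinates are printed. GCRMA pulls weak probes together, which shrinks fold changes of weak transcripts, and a uniform change of all transcripts cannot be seen.

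Values were taken as log2. Of 18952 probe sets, 183 were hybridisation controls, 13647 had 1 gene symbol, 402 several and 4720 none in the platform annotation. Those with 1 symbol and log2 4 or more on at least 2 arrays were kept, with the brightest set per gene, which left 5961 genes. Between 7175 and 7214 probe sets per array reached log2 4, and the lowest correlation of 2 arrays of a group was 0.996. The number of arrays limits the precision.

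One mean per group was fitted with limma 3.58.1 in R 4.3.3 (16 residual degrees of freedom, eBayes, two-sided, Benjamini-Hochberg over all genes, threshold 0.05). Each knockdown was set against the mean of the GFP and Luc means. The 6 genes and the lists were chosen with earlier results of these data known. Of each list the text names the 4 tested genes with the smallest F-test p over the 4 knockdowns, and spi, sty, Egfr, btl, htl, pnt, rl and Ras85D where measured. Closest genes are the 3 with the highest correlation. Other settings were another or no floor, 2 scalings, probe set means, a replicate block, 1 control group, fewer groups, a trended prior, and leaving out each array.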

Additional observations from a re-analysis of the deposited data

Results flagged for a closer look

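Of 185 groups of 4 arrays examined over the named genes, 9 had 1 array far from the other 3 by Dixon's criterion, where chance alone gives about 1 in 20. Among the 6 genes this was Pvf3 on the CycC 2 array, at log2 7.26 against 6.97 to 7.00 on the other 3. The CycC transcript itself stood at 4.83 on the CycC 3 array, against 4.22 to 4.25 on the other 3. Further single arrays apart were spi on the Med12 1 array (12.84 against 12.88 to 12.88), Mkp3 on the CycC 1 array (8.33 against 8.46 to 8.46) and on the GFP 1 array (8.34 against 8.58 to 8.61), and drl on the GFP 3 array (4.05 against 4.26 to 4.28). For trk, below the floor, they were the GFP 1 array (3.27 against 3.69 to 3.75) and the Luc 1 array (3.09 against 3.73 to 3.78). For kto it was the GFP 2 array, at 8.70 against 8.68 to 8.69, a gap of about 0.01.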

How the results depend on the processing

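The 24 differences of the 6 genes from controls kept their direction, and moved by less than the SD within groups, under every alternative in which the gene was measured. That measure allows wide shifts where a difference is small. For Pvf3 the Med13 difference ran from -0.26 to -0.08 and the Cdk8 difference from 0.12 to 0.31. The gene bnl was not measured with a floor of log2 6. Leaving out 1 array at a time, the Cdk8 difference of bnl ran from -0.77 to -0.56, its Med13 difference from -1.69 to -1.56, and the Cdk8 difference of Pvf1 from 0.56 to 0.67.

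Leaving out arrays changed some counts of passing genes by over 1.5 times. The Cdk8 count of 1113 genes ran from 536 (without Cdk8 1, and 622 without Cdk8 2) to 1180 when 1 array was left out, and the count of 8 pathway genes from 4 to 10. The other counts under leaving out 1 array ran from 1140 to 1509 (CycC, 1445 with all arrays), 2146 to 2557 (Med12, 2499), 1568 to 1958 (Med13, 1918) and 2461 to 3012 (between the pairs, 2928). For pathway genes they ran from 7 to 12 (CycC), 11 to 17 (Med12) and 7 to 11 (Med13). Med12 against Med13 gave 52 genes, 25 without Med12 3 to 69, and 33 when only those 2 groups were fitted, where fewer arrays estimate the spread. Cdk8 against CycC gave 6 genes, 3 to 8 when 1 array was left out, and 3 with Luc controls only or with those 2 groups alone. GFP against Luc gave 2 genes, up to 10 without Luc 4, 4 with median centring or quantile normalization and 5 with the replicate number as a block. The CycC count of 10 pathway genes was 5 with GFP controls only. For kay the mean of its probe sets turned the direction, to 0.12 (Med12) and 0.22 (Med13). The cause of these shifts was not tested. Over all alternatives, comparisons of named pathway genes lost a call 89 times and gained one 49 times, and in 51 further cases a difference that passed in neither setting changed sign.

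The labels do not say that replicate numbers pair the arrays. Deviations of same-numbered arrays of different groups correlated over 0.1 in 25 of 50 pairs (median 0.09), against 32 of 150 differently numbered pairs (median -0.04), and 12 of 22 arrays correlated best with their own number. This is a hint of pairing from the data, and the share of arrays expected without pairing was not computed. Deviations cancel out within a group, so both medians are not independent of each other. Because the labels name no pairing, the block stayed an alternative, under which no other count moved by over 1.5 times. Without 1 of the 2 Cdk8 arrays, the lone array is assumed to vary like the other groups. The largest SE of the 24 differences was that of bnl with Cdk8 dsRNA, 0.18.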
